A study of Mus musculus with 108 samples.

Results

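Microglia were compared between regimens of whole-brain radiotherapy. These were 1 fraction of 10 Gy (labelled 1x10 Gy, D3) and 5 fractions of 2 Gy (labelled 5x2 Gy, D3). Both groups were taken on day 3. The libraries were chosen by their titles alone: 3 libraries of 1x10 Gy and 4 of 5x2 Gy, 7 of the 108 libraries of the series. The series covers myeloid cells of mice with brain metastases of lung tumour cells, and RNA was counted per gene. All mice were athymic nude mice of the Balb/C strain CAnN.Cg-Foxn1nu/Crl, which lack a thymus and therefore most T cells. Both irradiated groups came from brains whose tumour stage was recorded as not stratified. Unirradiated microglia of tumour-bearing brains, 5 libraries of the small and 5 of the large stage, were used to place both regimens. Age and sex are not given in the labels. The labels do not say from which fraction the days were counted, nor whether all 5 fractions had been given by day 3. The pattern of fractions, the dose given by then and the time since the first or the last dose therefore cannot be told apart. The labels also do not say that each library came from a separate animal. The p-values of the main fit therefore refer to a spread among libraries, estimated over all 34 microglia libraries of the series. Part of that spread may be technical.

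Microglia are the macrophages that reside in the brain parenchyma, and they depend on the receptor of colony-stimulating factor 1. Ionising radiation breaks both strands of DNA, which activates the kinase ATM and stabilises the transcription factor p53. p53 then induces genes that arrest the cell cycle (Cdkn1a), that limit p53 itself (Mdm2, Ccng1) and that restrain survival signalling or favour apoptosis (Phlda3, Bax). Dividing a dose into fractions leaves time for repair between them, which in many tissues spares normal cells relative to a single exposure of the same total dose. Interferon-stimulated genes are another class of genes that respond to irradiation in many cell types.

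The libraries were deep and of similar size, with 12319385 to 14499182 counts in 1x10 Gy and 9796784 to 14973034 in 5x2 Gy. The microglial markers were present in all 7 libraries: P2ry12, a purinergic receptor, had 2031, 1845 and 2034 CPM in 1x10 Gy, against 2246, 2140, 2546 and 1534 CPM in 5x2 Gy (CPM, counts scaled to library size with TMM factors). Ly6c2, a marker of inflammatory monocytes, stayed at or under 1.63 CPM in every library. In bulk libraries like these, fewer cells of a type and less RNA per cell cannot be told apart. 3 of the 5x2 Gy libraries stood apart. Library 1 had 30967 genes detected, against 17967 to 21327 in the others. Library 2 had 0 counts of Xist and 294 CPM over Y-linked genes, whereas the other 6 had 230.1 to 841 CPM of Xist. Library 4 had 0.952% of its counts in ribosomal protein genes, against 0.268 to 0.39% in the others, together with high MHC class II and Ccr2. A further gene model, CT010467.1, had 250.5 and 360.2 CPM in 5x2 Gy libraries 1 and 2 and at most 0.468 CPM in the other 5. The CPM of Xist, the Y-linked genes and CT010467.1 are before TMM scaling. Pearson correlations of log2 CPM across genes were 0.964 to 0.968 within 1x10 Gy, 0.895 to 0.960 within 5x2 Gy and 0.898 to 0.961 between the groups. Leaving out any 1 of the 4 5x2 Gy libraries left 0 genes past the threshold in the comparison of the regimens.

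Targets of p53 were among the genes that rose over unirradiated microglia in both regimens. In the quasi-likelihood test of edgeR with Benjamini-Hochberg adjustment over 19754 genes, 20 genes were higher in 1x10 Gy (0.101% of those tested) and 12 genes in 5x2 Gy (0.0607%), each against the same 10 unirradiated libraries, and 0 genes were lower in either. At an unadjusted p under 0.05, 412 genes were higher (2.09%) and 1191 lower (6.03%) in 1x10 Gy, and 161 higher (0.815%) and 196 lower (0.992%) in 5x2 Gy. DESeq2 called 136 genes lower in 1x10 Gy and 5 in 5x2 Gy (Dct, Cdkn2c, Kif23, Prr11 and Acox3). 8 of the 20 and 5 of the 12 belonged to a list of 35 p53 targets. The 20 became 10 without 1x10 Gy library 1 and 12 without library 2, and the 12 became 7 without 5x2 Gy library 1. Because both comparisons use the same unirradiated libraries, their values are given side by side without a measure of likeness, and a gene called in 1 regimen is not thereby shown to differ between them.

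The genes behind these counts are shown with the promoter windows of the 4 best known among them, since p53 acts by binding DNA near its targets. Each window runs from 250 bases before to 50 bases after the start of transcription, from RefSeq on GRCm38.p6. Capitals mark matches to the 10-base p53 half-site consensus, which reads the same on both strands. Phlda3 (ENSMUSG00000041801) lies at chr1:135765835-135766134 on the plus strand, Ccng1 (ENSMUSG00000020326) at chr11:40755237-40755536 on the minus strand, Mdm2 (ENSMUSG00000020184) at chr10:117710709-117711008 on the minus strand, and the first listed start of Cdkn1a (ENSMUSG00000023067) at chr17:29090729-29091028 on the plus strand. The windows read 5′ to 3′ as follows.
Phlda3: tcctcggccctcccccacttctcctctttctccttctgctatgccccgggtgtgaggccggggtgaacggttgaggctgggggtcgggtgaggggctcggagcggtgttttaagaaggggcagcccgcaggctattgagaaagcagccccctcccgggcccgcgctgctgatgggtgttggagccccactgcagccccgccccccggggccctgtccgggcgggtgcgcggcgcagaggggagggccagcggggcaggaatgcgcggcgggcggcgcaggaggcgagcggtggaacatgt
Ccng1: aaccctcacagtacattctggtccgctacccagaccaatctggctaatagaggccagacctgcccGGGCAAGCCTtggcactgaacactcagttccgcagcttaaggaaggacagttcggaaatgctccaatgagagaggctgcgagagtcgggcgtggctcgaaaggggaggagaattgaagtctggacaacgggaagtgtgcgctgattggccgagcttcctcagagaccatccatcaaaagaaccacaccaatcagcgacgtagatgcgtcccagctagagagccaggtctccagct
Mdm2: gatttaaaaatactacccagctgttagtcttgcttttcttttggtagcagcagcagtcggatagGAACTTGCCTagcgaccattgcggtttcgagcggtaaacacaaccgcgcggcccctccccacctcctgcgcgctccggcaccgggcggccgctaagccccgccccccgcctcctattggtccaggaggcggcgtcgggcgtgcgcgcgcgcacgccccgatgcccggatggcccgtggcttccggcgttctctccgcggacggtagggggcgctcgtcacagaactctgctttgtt
Cdkn1a: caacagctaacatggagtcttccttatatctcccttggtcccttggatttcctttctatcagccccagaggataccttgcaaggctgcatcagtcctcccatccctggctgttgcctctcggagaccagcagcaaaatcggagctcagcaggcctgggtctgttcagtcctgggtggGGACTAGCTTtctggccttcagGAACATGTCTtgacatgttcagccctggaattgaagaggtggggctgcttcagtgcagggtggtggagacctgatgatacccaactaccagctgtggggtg

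A half-site was matched once in the window of Ccng1, starting at base 66, once in that of Mdm2, at base 65, and in 2 places in that of Cdkn1a, at bases 178 and 200. The Phlda3 window held no match, which says only that these letters are not in this window. Of all 32851 promoter windows in the table, 2745 (8.36%) held at least 1 match. A match is a description of sequence and does not show binding.

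Phlda3, which encodes a pleckstrin-homology protein that inhibits the kinase AKT, was the gene with the smallest p against unirradiated cells in both regimens. It had 93.9, 39.9 and 34.0 CPM in 1x10 Gy, against 22.8, 21.3, 29.8 and 9.82 CPM in 5x2 Gy and 0.288 to 3.39 CPM in the 10 unirradiated libraries. All 3 libraries of 1x10 Gy lay above all 4 of 5x2 Gy, which in turn lay above every unirradiated one. The log2 fold change over unirradiated cells was 5.40 ± 0.48 (SE) in 1x10 Gy (edgeR adjusted p = 3.25e-08) and 3.98 ± 0.45 in 5x2 Gy (edgeR adjusted p = 1.13e-05). Between the regimens Phlda3 differed by 1.42 ± 0.58 on the log2 scale (95% interval 0.23 to 2.61, edgeR adjusted p = 0.751), with an interval that lies above 0 before adjustment and no call after it in edgeR. DESeq2 on the 7 libraries gave an adjusted p of 0.0355, in a range of 0.0355 to 1 over 22 alternatives, and called it.

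The gene called Inka2, an inhibitor of the p21-activated kinase PAK4, followed the same order. Inka2 had 28.4, 23.3 and 25.4 CPM in 1x10 Gy, against 19.4, 15.6, 20.2 and 13.4 CPM in 5x2 Gy and 0.368 to 3.01 CPM in unirradiated libraries. Its regimens did not overlap, yet its difference of 0.58 ± 0.65 had a wide interval, −0.75 to 1.91. Map3k20, which encodes the stress kinase ZAK, had 51.4, 48.0 and 36.5 CPM in 1x10 Gy, against 36.1, 26.0, 35.9 and 23.8 CPM in 5x2 Gy and 5.79 to 18.2 CPM in unirradiated libraries. Here too the 2 irradiated groups were separate, by the narrow gap between 36.5 and 36.1 CPM, and the log2 difference was 0.57 (−0.12 to 1.26).

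**Figure D1:**
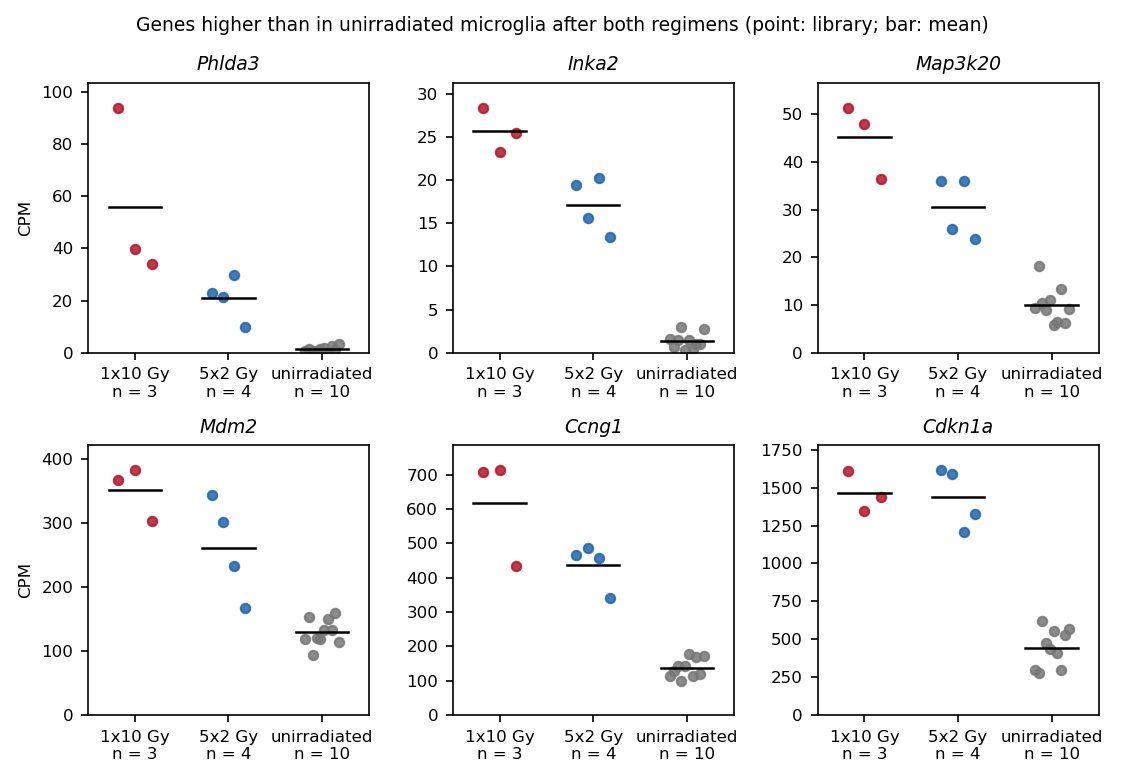
CPM (linear axis from 0) of 6 genes raised by both regimens, with 1 point per library and a bar at the mean of each group: 1x10 Gy (3 libraries), 5x2 Gy (4) and unirradiated microglia (10). All irradiated libraries lie above all unirradiated ones in each panel, and the 2 regimens are separate for Phlda3, Inka2 and Map3k20 and overlap for Mdm2, Ccng1 and Cdkn1a.

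The negative regulators of p53 rose in both regimens and overlapped between them. Mdm2, the ubiquitin ligase that degrades p53, had 367, 383 and 303 CPM in 1x10 Gy, against 344, 301, 232 and 167 CPM in 5x2 Gy and 93.1 to 160.1 CPM in unirradiated libraries. Its log2 fold change over unirradiated cells was 1.45 ± 0.18 in 1x10 Gy (edgeR adjusted p = 1.57e-05) and 1.02 ± 0.17 in 5x2 Gy (edgeR adjusted p = 0.00267). The direct difference was 0.43 (−0.02 to 0.88, edgeR adjusted p = 0.751). Ccng1, cyclin G1, had 707, 714 and 434 CPM in 1x10 Gy, against 465, 486, 456 and 340 CPM in 5x2 Gy and 98.5 to 178 CPM in unirradiated libraries. Library 3 of 1x10 Gy fell within the 5x2 Gy range, and the difference of 0.50 had an interval of −0.14 to 1.14.

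Cdkn1a and Bax had estimates near 0 between the regimens. Cdkn1a, which encodes the cyclin-dependent kinase inhibitor p21, had 1609, 1348 and 1436 CPM in 1x10 Gy, against 1618, 1590, 1205 and 1329 CPM in 5x2 Gy and 274 to 621 CPM in unirradiated libraries. It rose by 1.72 ± 0.30 in 1x10 Gy (edgeR adjusted p = 0.00396) and by 1.69 ± 0.28 in 5x2 Gy (edgeR adjusted p = 0.00293) on the log2 scale. The regimens overlapped, and their difference of 0.03 ± 0.38 had an interval of −0.75 to 0.81. Bax, a pro-apoptotic member of the BCL2 family, had 123, 103 and 94.3 CPM in 1x10 Gy, against 94.0, 101, 112 and 94.7 CPM in 5x2 Gy and 37.7 to 60.9 CPM in unirradiated libraries. The Bax difference was 0.09 (−0.42 to 0.60).

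Genes outside the p53 list that were called against unirradiated cells included enzymes and matrix proteins. Ephx1, the microsomal epoxide hydrolase, had 112, 86.7 and 57.8 CPM in 1x10 Gy, against 50.3, 61.0, 66.0 and 41.3 CPM in 5x2 Gy and 22.1 to 36.9 CPM in unirradiated libraries. It rose over unirradiated cells in 1x10 Gy by 1.59 ± 0.22 (edgeR adjusted p = 0.000183), while its value of 0.94 ± 0.21 in 5x2 Gy did not pass (edgeR adjusted p = 0.127). The difference between the regimens was 0.65 (0.08 to 1.22, edgeR adjusted p = 0.751), and library 3 of 1x10 Gy lay within the 5x2 Gy range. Mmp2, a gelatinase, had 216, 179.8 and 133 CPM in 1x10 Gy, against 85.6, 121, 108 and 92.9 CPM in 5x2 Gy and 36.2 to 70.1 CPM in unirradiated libraries. The Mmp2 groups were separate, with a difference of 0.79 (0.02 to 1.57, edgeR adjusted p = 0.751). DESeq2 on the 7 libraries called Mmp2 higher in 1x10 Gy (adjusted p = 0.0301). Sulf2, an extracellular heparan sulfatase, was also separate, with 203, 146 and 124 CPM in 1x10 Gy, against 98.0, 110.0 and 109.9 CPM in 5x2 Gy libraries 1 to 3 and 72.2 CPM in library 4 (difference 0.69, −0.12 to 1.51).

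Some genes raised by irradiation showed no such order. Exoc4, a subunit of the exocyst, had 225, 239 and 159.6 CPM in 1x10 Gy, against 225, 144, 206 and 203 CPM in 5x2 Gy and 63.9 to 125 CPM in unirradiated libraries, and was called in both regimens. Prune2 had 157, 195 and 154 CPM in 1x10 Gy, against 163, 190.0 and 165 CPM in 5x2 Gy libraries 1 to 3 and 231 CPM in library 4. It was called in 5x2 Gy (edgeR adjusted p = 0.00437) and missed the threshold in 1x10 Gy (edgeR adjusted p = 0.0526), and the direct difference was −0.15 (−0.72 to 0.42). All 20 genes called in 1x10 Gy had a direct estimate above 0, with a median of 0.57, and 10 of the 12 called in 5x2 Gy did, with a median of 0.46. Being called in 1x10 Gy favours a high value in those same libraries. The 10 above 0 among the genes called in 5x2 Gy were those called in both regimens. Prune2 and Trpm2, called in 5x2 Gy alone, had estimates of −0.15 and −0.02. The counts above 0 therefore carry no test.

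Compared directly over all genes, the regimens were not told apart gene by gene. 0 of 19754 genes passed an adjusted p of 0.05 in edgeR (0% of those tested), and the smallest adjusted p was 0.751. At an unadjusted p under 0.05, edgeR gave 176 genes higher in 1x10 Gy (0.891%) and 854 lower (4.32%). DESeq2 on the same libraries called 32 genes, 1 higher (Dct) and 31 lower, and limma voom with sample weights called 24, 5 higher (Col6a3, Kdr, Fzd8, Pml and Tbc1d10b) and 19 lower. With the 7 libraries alone edgeR called 0, with 850 genes higher (6.38%) and 1059 lower (7.95%) at an unadjusted p under 0.05, and DESeq2 called 194, 58 higher and 136 lower. Without 1x10 Gy library 3, edgeR called 2 genes lower, Ldhb and the gene model Gm5514. The libraries of the regimens did not overlap for 1308 genes higher (6.62%) and 1125 lower (5.7%).

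The precision of this comparison was limited. Among the 9411 genes that averaged at least 10 CPM in either regimen, the 95% interval of the log2 difference had a median half-width of 0.70, a 1.62-fold change, with quartiles of 0.56 and 0.89. In these genes 58% of estimates lay above 0, 118 genes were higher (1.25%) and 136 lower (1.45%) at an unadjusted p under 0.05, and the groups did not overlap for 1162 genes higher (12.3%) and 434 lower (4.61%). Over all genes tested, 39.8% of estimates lay above 0 and the median log2 fold change was −0.13 (−0.17 with the scaling of DESeq2), and among the 9411 genes of 10 CPM or more the median was 0.06. Genes of low level made up most of the estimates below 0, so list medians are read against both values. Of the lists below, all 35 interferon-stimulated, all 25 homeostatic and all 27 disease-associated genes and 28 of the 35 p53 targets averaged at least 10 CPM in either regimen.

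The 35 p53 targets lay higher in 1x10 Gy as a group of values. Of the 35, 28 had an estimate above 0, with a median of 0.34, and 24 did with the scaling of DESeq2. Without 1x10 Gy library 1, 21 were above 0 with a median of 0.19. 3 of the 35 were higher at an unadjusted p under 0.05 and 0 lower, beside 0.891% of all genes higher and 1.25% of those of 10 CPM or more. 6 of the 35 were separate between the groups, all higher, beside 6.62% of all genes and 12.3% of those of 10 CPM or more. Among the 28 targets of 10 CPM or more, 23 had an estimate above 0, with a median of 0.33. DESeq2 on the 7 libraries called 2 of the list, Gtse1 and Phlda3. Over unirradiated cells the median log2 fold change of the list was 0.72 in 1x10 Gy and 0.50 in 5x2 Gy.

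Gtse1, a p53-induced gene that acts in the G2 and S phases and itself dampens p53, had the largest estimate of the list. It had 15.3, 13 and 19.7 CPM in 1x10 Gy, against 4.75, 4.51, 5.97 and 4.80 CPM in 5x2 Gy and 1.06 to 7.81 CPM in unirradiated libraries. Only the 1x10 Gy libraries lay above the unirradiated range, and the difference was 1.67 ± 0.73 (0.17 to 3.17, edgeR adjusted p = 0.751). In DESeq2 on the 7 libraries its adjusted p was 6.01e-05, the lowest of 21 alternatives, which reached 1. Plk2, a polo-like kinase, had 212, 215 and 184 CPM in 1x10 Gy, against 137, 127, 80.3 and 149 CPM in 5x2 Gy and 82.5 to 183 CPM in unirradiated libraries. The 5x2 Gy values of Plk2 lay inside or just below the unirradiated range, and the difference was 0.73 (0.00 to 1.45, edgeR adjusted p = 0.751). Tap1, a peptide transporter of the MHC class I pathway, had 118, 122 and 121 CPM in 1x10 Gy, against 82.7, 80.0, 75.2 and 97.2 CPM in 5x2 Gy. Both groups of Tap1 lay within the unirradiated range of 64.8 to 131 CPM, and its interval was −0.01 to 1.05.

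Per library, the mean log2(CPM + 1) of the 35 p53 targets was 5.82, 5.63 and 5.50 in 1x10 Gy, against 5.46, 5.41, 5.34 and 5.26 in 5x2 Gy. The 2 groups did not overlap, and the 10 unirradiated libraries lay below both, at 4.63 to 5.04. Later libraries of the 5x2 Gy regimen ran from 5.17 to 5.45 on day 5 (4 libraries) and from 5.05 to 5.29 on day 10 (3 libraries). Cdkn1a averaged 1435 CPM on day 3, 1204 CPM on day 5 and 762 CPM on day 10 of 5x2 Gy. Phlda3 averaged 20.9, 13.8 and 14.8 CPM on the same days. By the titles, all microglia libraries of 1x10 Gy in the series were of day 3, so no such course can be given for 1x10 Gy.

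**Figure D2:**
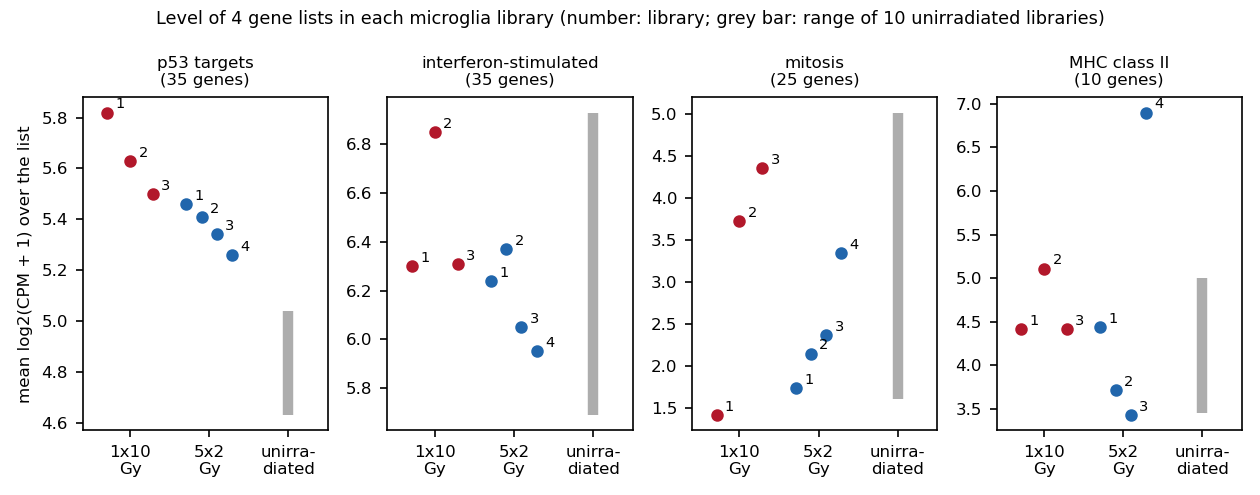
Mean log2(CPM + 1) of 4 gene lists per library, with 1 point per library of 1x10 Gy (3) and 5x2 Gy (4) and a grey bar for the range of the 10 unirradiated libraries. The p53 targets lie above the unirradiated range in all 7 libraries, the interferon-stimulated genes within it, mitosis runs from 1.42 to 4.36 in 1x10 Gy, and MHC class II is high in 5x2 Gy library 4.

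Interferon-stimulated genes also leaned towards 1x10 Gy, within the range of unirradiated microglia. Of 35 genes, 32 had an estimate above 0 with a median of 0.35. At an unadjusted p under 0.05, 1 was higher, beside 0.891% of all genes and 1.25% of those of 10 CPM or more. 5 of the 35 were separate, all higher, a share near the 12.3% of all genes of 10 CPM or more. DESeq2 on the 7 libraries called 1 of the list, Irf7. Irf7, the transcription factor that amplifies type I interferon responses, had 180.3, 358 and 196 CPM in 1x10 Gy, against 117, 156, 115 and 124 CPM in 5x2 Gy and 108 to 417 CPM in unirradiated libraries. The difference was 0.94 ± 0.42 (0.07 to 1.80, edgeR adjusted p = 0.751). Ifit2, which binds viral RNA, had 215, 359.8 and 222 CPM in 1x10 Gy, against 179, 204, 165 and 104 CPM in 5x2 Gy, and Stat2, a signal transducer of the type I receptor, had 120.0, 176 and 117 CPM against 102, 84.3, 76.8 and 90.8 CPM. Both were separate with intervals that include 0 (−0.06 to 1.46 and −0.13 to 1.40). Library 2 of 1x10 Gy was the highest for all 3 genes, and without it 27 of the 35 were above 0 with a median of 0.19.

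Ifit3 and Cxcl10 overlapped between the regimens. Ifit3, a partner of Ifit2 in antiviral defence, had 153, 228 and 187 CPM in 1x10 Gy, against 171, 198, 176 and 146 CPM in 5x2 Gy, and the chemokine Cxcl10 had 38.7, 37.5 and 56.7 CPM against 45.9, 45.4, 34.6 and 25.2 CPM. The mean log2(CPM + 1) of the list was 6.30, 6.85 and 6.31 in 1x10 Gy, against 6.24, 6.37, 6.05 and 5.95 in 5x2 Gy, and 5.69 to 6.93 in unirradiated libraries. The groups overlapped, and no library of either lay above the unirradiated range. The 5x2 Gy regimen reached 5.90 to 6.96 on day 5 and 6.79 to 6.95 on day 10. Of the 16 interferon-gamma GTPases and partners tested, 11 had an estimate above 0, with a median of 0.15. DESeq2 on the 7 libraries called 2 of them, both higher in 1x10 Gy. Irgm1, a GTPase of the interferon response, had 246, 391 and 246 CPM in 1x10 Gy, against 223, 225, 206 and 168 CPM in 5x2 Gy (0.52, −0.04 to 1.08).

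Genes of mitosis were spread widely within both regimens. All 25 had an estimate above 0, beside 39.8% of all genes and 58% of those of 10 CPM or more, with a median of 1.22. At an unadjusted p under 0.05, 3 were higher, beside 0.891% of all genes and 1.25% of those of 10 CPM or more. The list mean was 1.42, 3.73 and 4.36 in 1x10 Gy, against 1.74 to 3.35 in 5x2 Gy, and 1.61 to 5.02 in unirradiated libraries. Library 1 of 1x10 Gy was the lowest of all 7 and the other 2 were the highest. Without 1x10 Gy library 3 the list median fell to 0.41 with 22 of 25 above 0, and without library 1 it was 1.76. Without 5x2 Gy library 4 it was 1.78.

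Mki67, a marker of cycling cells, had 3.3, 20.3 and 39.5 CPM in 1x10 Gy, against 6.12, 5.55, 7.55 and 25.3 CPM in 5x2 Gy and 7.21 to 72.4 CPM in unirradiated libraries. The groups overlapped, and the difference was 0.91 (−0.58 to 2.40). Kif23, a kinesin of cytokinesis, had 0.965, 10.6 and 13.6 CPM in 1x10 Gy, against 1.16, 1.32, 1.74 and 3.04 CPM in 5x2 Gy (2.19 ± 0.79, edgeR adjusted p = 0.751). Cdc20, an activator of the anaphase-promoting complex, had 3.38, 16 and 24.4 CPM in 1x10 Gy, against 1.48, 1.88, 4.06 and 10.6 CPM in 5x2 Gy. In 1x10 Gy library 1, Mki67 and Kif23 lay below all 4 libraries of 5x2 Gy, and Cdc20 lay within their range. Along the 5x2 Gy regimen the mitosis mean was 2.24 to 4.94 on day 5 and 4.86 to 5.22 on day 10. Of the genes of DNA replication, 19 of 30 had estimates above 0, with a median of 0.04. Without 1x10 Gy library 3 that median was −0.28 with 9 above 0, without 5x2 Gy library 1 it was −0.15 with 10, and without 5x2 Gy library 4 it was 0.52 with 28, so no direction is given.

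Because no gene passed the threshold, the 15 genes with the smallest p in each direction at 10 CPM or more are described, and none of these 30 passed in edgeR (adjusted p = 0.751 for each). DESeq2 on the 7 libraries called 8 of the 15 higher and 10 of the 15 lower, and voom with sample weights called 4 and 2. The genes were chosen by their p for the contrast of these same libraries, so those calls carry no test. Of the 15 higher in 1x10 Gy, 11 were separate between the groups, beside 12.3% of all genes of 10 CPM or more. Choice by p favours separate groups, so this count carries no test. Znfx1, a helicase-domain sensor of viral RNA, had 325, 486 and 309.8 CPM in 1x10 Gy, against 207, 218, 216 and 169 CPM in 5x2 Gy and 136 to 318 CPM in unirradiated libraries. It had the smallest p among them, with a difference of 0.88 ± 0.27 (0.33 to 1.44, edgeR adjusted p = 0.751). The strand of counting is not given in the sources used here, so reads of its antisense partner Zfas1 may be included.

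Kdr, the receptor of vascular endothelial growth factor, had 32.2, 32.2 and 34.1 CPM in 1x10 Gy, against 23.7, 12.6, 12.4 and 12.6 CPM in 5x2 Gy (1.1, 0.33 to 1.88). Cdkn2c, a cyclin-dependent kinase inhibitor of the INK4 family, had 6.43, 11.1 and 13.9 CPM in 1x10 Gy, against 2.95, 3.76, 3.07 and 6.08 CPM in 5x2 Gy (1.40, 0.38 to 2.41). Tlr12, a Toll-like receptor that recognises profilin of parasites in mice, had 19.7, 16.5 and 38.1 CPM in 1x10 Gy, against 8.33, 10.2, 8.79 and 4.80 CPM in 5x2 Gy (1.63, 0.43 to 2.83). All 3 genes were separate between the regimens. The unirradiated libraries of Kdr ran from 15 to 32.0 CPM, below the 1x10 Gy libraries and above 3 of the 4 5x2 Gy libraries.

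Other genes of this set encode membrane and matrix proteins. Fzd8, a Wnt receptor, had 15.8, 13.6 and 23.5 CPM in 1x10 Gy, against 4.11, 9.50, 4.56 and 4.66 CPM in 5x2 Gy (1.63, 0.44 to 2.81). Col6a3, a chain of type VI collagen, had 21.3, 20.1 and 24.6 CPM in 1x10 Gy, against 14.1, 8.09, 6.30 and 6.15 CPM in 5x2 Gy (1.35, 0.29 to 2.40). Nectin2 and Nectin4, adhesion molecules of the nectin family, were separate as well, with differences of 0.59 (0.13 to 1.05) and 0.60 (0.14 to 1.06). Dusp27, an atypical phosphatase, had 85.6, 55.4 and 55.4 CPM in 1x10 Gy, against 27.4, 21.5, 25.5 and 31.4 CPM in 5x2 Gy (1.31, 0.35 to 2.26). Tbc1d10b, a Rab GTPase-activating protein, had 90.4, 71.6 and 84.1 CPM in 1x10 Gy, against 43.6, 66.9, 31.3 and 31.5 CPM in 5x2 Gy. The remaining separate gene was Afap1, an actin-binding protein (0.88, 0.20 to 1.57).

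The 4 genes of this set that overlapped each rested on some of the 1x10 Gy libraries. Gpr37l1, a receptor of astrocytes, had 2.33, 72.2 and 4.27 CPM in 1x10 Gy, against 0.633, 0.188, 3.90 and 1.13 CPM in 5x2 Gy, and Gja1, the gap junction protein connexin 43 of astrocytes, had 2.81, 21.8 and 6.47 CPM against 1.48, 0.846, 3.23 and 1.13 CPM. Library 2 of 1x10 Gy was the highest for both. Ect2, an exchange factor of cytokinesis, had 3.94, 13.1 and 20.3 CPM in 1x10 Gy, against 3.90, 5.17, 2.65 and 5.16 CPM in 5x2 Gy, the same library order as Mki67 in 1x10 Gy. Tgtp2, a GTPase induced by interferon-gamma, had 6.27, 23.5 and 21.6 CPM in 1x10 Gy, against 8.12, 5.36, 3.57 and 3.67 CPM in 5x2 Gy.

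**Figure D3:**
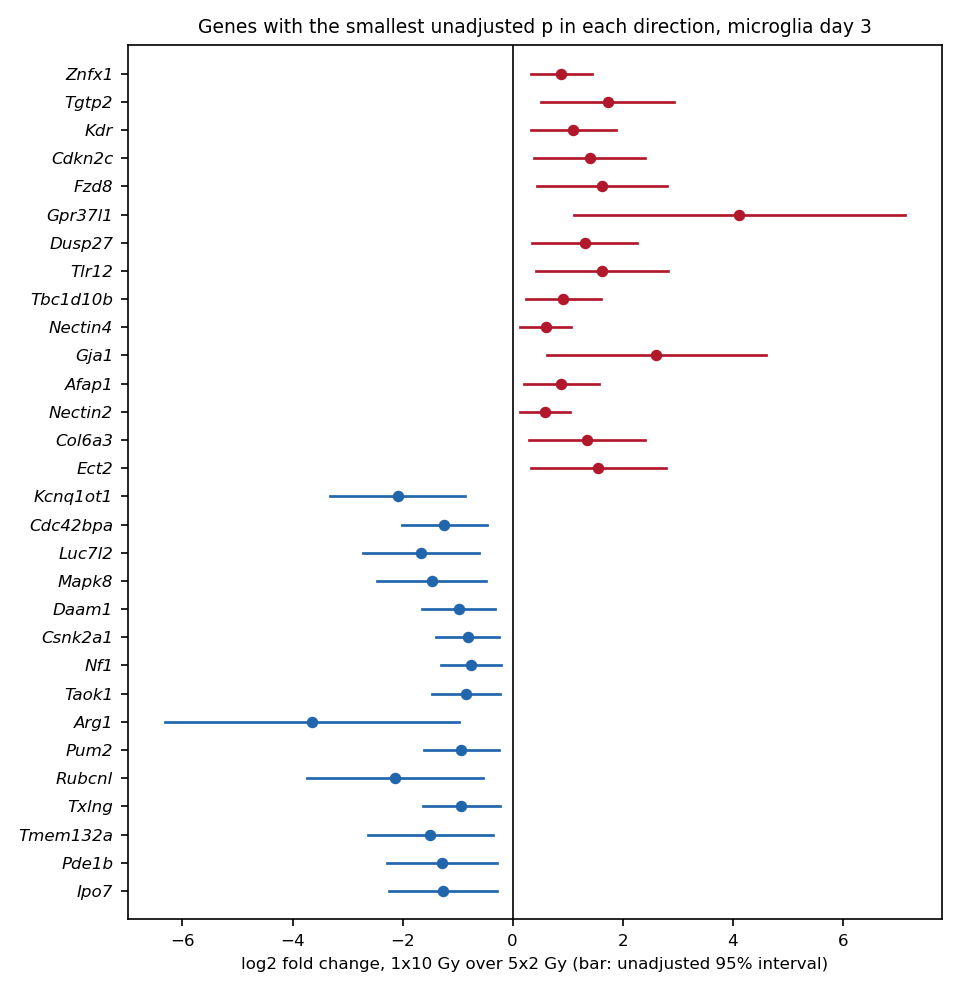
Log2 fold change of 1x10 Gy over 5x2 Gy with its unadjusted 95% interval for the 15 genes of smallest p in each direction at 10 CPM or more. The estimates run from 0.59 to 4.12 among the higher genes and from −3.65 to −0.76 among the lower ones. None passed after adjustment in edgeR, while DESeq2 on the 7 libraries called 8 of the higher and 10 of the lower genes. The genes were chosen by their p for the contrast of these same libraries, so those calls carry no test.

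All 15 of the genes lower in 1x10 Gy were separate between the groups, beside 4.61% of all genes of 10 CPM or more. They too were chosen by p, which favours separate groups, so this count carries no test. Kcnq1ot1, the long antisense RNA of the imprinted Kcnq1 locus, had 14, 9.25 and 16.5 CPM in 1x10 Gy, against 61.5, 39.0, 76.4 and 48.3 CPM in 5x2 Gy and 31.0 to 76.3 CPM in unirradiated libraries. The 1x10 Gy libraries lay below the unirradiated range and the 5x2 Gy libraries inside it or at its upper end. The difference was −2.09 ± 0.60 (−3.31 to −0.87, edgeR adjusted p = 0.751), and DESeq2 on the 7 libraries gave an adjusted p of 1.62e-09, in a range up to 1 over 22 alternatives. Luc7l2, a splicing factor, had 22.1, 21.2 and 30.5 CPM in 1x10 Gy, against 87.0, 62.5, 85.8 and 76.6 CPM in 5x2 Gy and 55.8 to 123 CPM in unirradiated libraries. It showed the same placement, with a difference of −1.66 ± 0.51 (−2.71 to −0.62) and an adjusted p of 2.4e-10 in DESeq2 on the 7 libraries, the lowest of 22 alternatives, which reached 1.

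Several of the lower genes encode kinases and their regulators. Mapk8, the stress kinase JNK1, had 9.73, 7.87 and 10.9 CPM in 1x10 Gy, against 33.3, 27.0, 20.2 and 24.9 CPM in 5x2 Gy and 14.3 to 44.2 CPM in unirradiated libraries (−1.47, −2.46 to −0.48). Taok1, a kinase upstream of the p38 pathway, had 70.1, 55.3 and 75.2 CPM in 1x10 Gy, against 115, 107, 115 and 144 CPM in 5x2 Gy (−0.85, −1.47 to −0.23). Csnk2a1, the catalytic subunit of casein kinase 2, had 21.7, 13.1 and 18.4 CPM in 1x10 Gy, against 33.2, 34.6, 27.4 and 30.0 CPM in 5x2 Gy. Cdc42bpa, a kinase that acts downstream of Cdc42, had 9.41, 2.93 and 8.61 CPM in 1x10 Gy, against 19.3, 17.6, 13 and 16.3 CPM in 5x2 Gy. Nf1, a GTPase-activating protein of Ras, had 20.5, 16.8 and 19.2 CPM in 1x10 Gy, against 32.7, 28.5, 31.4 and 35.1 CPM in 5x2 Gy (−0.76, −1.31 to −0.21).

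Arg1, arginase, had the largest estimate of the lower genes and the widest spread. It had 2.01, 2.66 and 1.07 CPM in 1x10 Gy, against 4.22, 22.3, 3.07 and 66.3 CPM in 5x2 Gy and 0.689 to 15.7 CPM in unirradiated libraries. The 5x2 Gy mean was carried by libraries 2 and 4, and the difference was −3.65 ± 1.31 (−6.32 to −0.98, edgeR adjusted p = 0.751). Rubcnl, a regulator of autophagy, had 6.19, 3.11 and 51.6 CPM in 1x10 Gy, against 56.9, 99.4, 93.8 and 109.9 CPM in 5x2 Gy, so that library 3 of 1x10 Gy lay near the 5x2 Gy libraries. Daam1, Pum2, Txlng, Tmem132a, Pde1b and Ipo7 made up the rest, with differences between −0.93 and −1.5. Of the 15 lower genes, 10 overlap a gene on the opposite strand, against 4 of the 15 higher ones, and reads of the partners may be included. The share of such overlaps over all genes was not computed, so these counts are not read as a trait of either set.

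Gene models without an established protein were lower in 1x10 Gy as whole classes. The 951 tested models of the class TEC, loci that still await experimental evidence, had a median log2 fold change of −1.77, and 185 of them (19.5%) were lower at an unadjusted p under 0.05. The 103 sense-intronic models had a median of −1.50 with 21 lower (20.4%), the 671 lincRNAs −1.19 and the 622 antisense models −1.0. The 15326 protein-coding genes had a median of −0.04 with 431 lower (2.81%). Protein-coding genes thus made up 431 of the 854 genes lower at that threshold.

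The share of counts in TEC models was 0.0677, 0.0593 and 0.0916% in 1x10 Gy, against 0.273, 0.0898, 0.222 and 0.182% in 5x2 Gy and 0.122 to 0.463% in unirradiated libraries. All 3 libraries of 1x10 Gy and library 2 of 5x2 Gy lay below every unirradiated library. The means of 0.0729 ± 0.0168% in 1x10 Gy and 0.191 ± 0.0774% in 5x2 Gy (SD, n = 3 and 4) gave a two-sided exact permutation p of 0.114. In this design the smallest one-sided p is 0.0286. The two-sided p doubles the one-sided value, so no exact permutation test given here could reach a p under 0.05. Before TMM scaling, the nuclear RNA Malat1 averaged 258 ± 20.3 CPM in 1x10 Gy and 468 ± 214 CPM in 5x2 Gy (SD, n = 3 and 4, exact permutation p = 0.171). On the same scale Neat1, the scaffold RNA of paraspeckles, averaged 64.5 ± 31.9 CPM in 1x10 Gy and 203 ± 106 CPM in 5x2 Gy (SD, n = 3 and 4, exact permutation p = 0.114). Library 1 of 5x2 Gy had both the highest TEC share and the most genes detected. Without it, the median log2 fold change over all genes was −0.01. Whether RNA quality or library preparation has a part in these values was not tested.

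**Figure D4:**
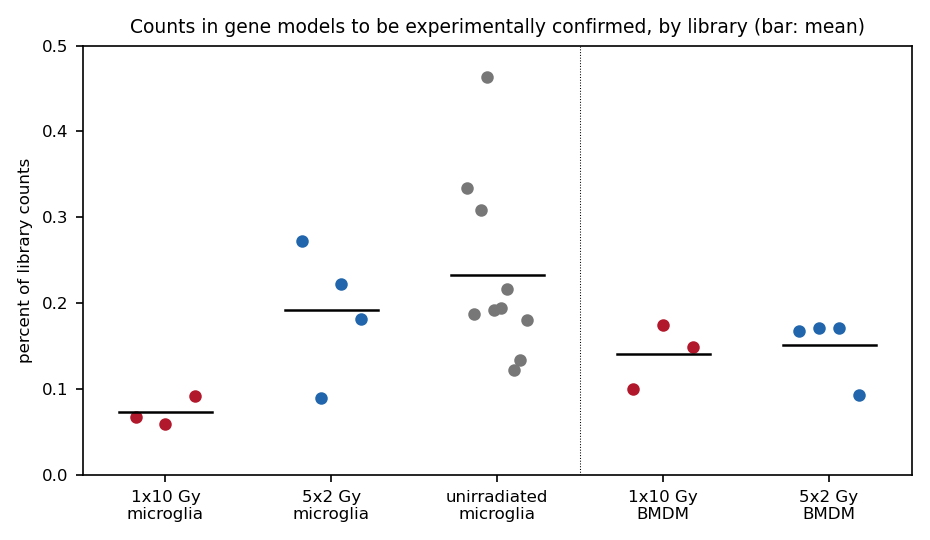
Percent of counts in TEC gene models per library (linear axis from 0) for microglia of 1x10 Gy (3), 5x2 Gy (4) and no irradiation (10), and for monocyte-derived macrophages of 1x10 Gy (3) and 5x2 Gy (4), with a bar at each mean. Microglia of 1x10 Gy lie at 0.0593 to 0.0916%, and the macrophages of both regimens overlap.

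Genes of microglial identity showed no common direction. Of 25 homeostatic genes, 16 had an estimate above 0 with a median of 0.04 (13 with the scaling of DESeq2), and 0 passed an unadjusted p of 0.05. 4 of the 25 were separate, all higher, near the 12.3% of all genes of 10 CPM or more. Tmem119, a microglial surface protein, had 2171, 2334 and 2437 CPM in 1x10 Gy, against 1951, 1810, 2393 and 1600 CPM in 5x2 Gy, and Sall1, a transcription factor that maintains microglial identity, had 234, 200.2 and 222 CPM against 166, 157, 211 and 127 CPM. Both overlapped. Adgrg1, an adhesion receptor, had 842, 779 and 862 CPM in 1x10 Gy, against 446, 559, 567 and 425 CPM in 5x2 Gy and 304 to 1052 CPM in unirradiated libraries, and was separate (0.73, −0.04 to 1.5). DESeq2 on the 7 libraries called Adgrg1 alone of this list, higher in 1x10 Gy (adjusted p = 0.00565). Csf1r, the receptor of colony-stimulating factor 1, was separate as well, with 7388, 8086 and 7643 CPM in 1x10 Gy, against 5595, 5995, 5598 and 5470 CPM in 5x2 Gy (0.44, −0.11 to 0.99). 3 of the 4 5x2 Gy libraries of Csf1r lay below the unirradiated range of 5980 to 9287 CPM, and the 1x10 Gy libraries lay within it.

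Of 27 genes of disease-associated microglia, a state described around plaques and lesions, 7 had an estimate above 0, with a median of −0.19. Clec7a, a receptor of fungal glucans, had 53.5, 69.3 and 269 CPM in 1x10 Gy, against 476, 538, 77.8 and 279.9 CPM in 5x2 Gy and 189.5 to 441 CPM in unirradiated libraries. Its groups overlapped, with a difference of −1.39 ± 0.54 (−2.50 to −0.29, edgeR adjusted p = 0.751). Lyz2, lysozyme, had 1868, 1437 and 1469 CPM in 1x10 Gy, against 1883, 3095, 1966 and 2621 CPM in 5x2 Gy, a separation by 1 narrow gap (−0.59, −1.24 to 0.07). Lpl, lipoprotein lipase, had 192, 111 and 119 CPM in 1x10 Gy, against 226, 482, 175 and 259.8 CPM in 5x2 Gy (−1.02, −2.29 to 0.24). Spp1, osteopontin, had 4529, 2432 and 2511 CPM in 1x10 Gy, against 4225, 8310, 3411 and 4409 CPM in 5x2 Gy (−0.69, −1.90 to 0.53), and Cst7, an inhibitor of cathepsins, had 606, 427 and 419 CPM against 512, 971, 843 and 722 CPM (−0.66, −1.65 to 0.34). Apoe, an apolipoprotein, and Axl, a phagocytic receptor, overlapped with estimates of −0.12 (−0.79 to 0.55) and 0.36 (−0.43 to 1.15). Library 2 of 5x2 Gy was the highest of the 7 for Lyz2, Lpl, Spp1, Cst7, Clec7a, Apoe and Axl.

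Antigen presentation by MHC class II was set by a single library. None of the 10 genes had an estimate above 0, and the median was −0.83, but without 5x2 Gy library 4 the median was 1.08 with 6 above 0. H2-Eb1, a class II beta chain, had 67.2, 63.2 and 60.6 CPM in 1x10 Gy, against 13.8, 17.8 and 15.3 CPM in 5x2 Gy libraries 1 to 3 and 572 CPM in library 4. H2-Aa, a class II alpha chain, had 9.25, 14.8 and 7.46 CPM in 1x10 Gy, against 5.17, 5.55 and 3.32 CPM in 5x2 Gy libraries 1 to 3 and 97.4 CPM in library 4. For both genes the 1x10 Gy libraries lay above the first 3 libraries of 5x2 Gy and below library 4.

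The same library carried markers of cells recruited from the blood. Ccr2, a chemokine receptor of monocytes, had 28.4, 16.1 and 16.2 CPM in 1x10 Gy, against 4.96, 17.0 and 11.9 CPM in 5x2 Gy libraries 1 to 3 and 235 CPM in library 4. Itga4, an integrin that separates recruited macrophages from microglia in mice, had 3.70, 8.33 and 6.70 CPM in 1x10 Gy, against 11.2, 6.02 and 6.47 CPM in 5x2 Gy libraries 1 to 3 and 26.3 CPM in library 4. Of 21 markers of monocyte-derived cells, 4 had an estimate above 0, with a median of −1.0, but without 5x2 Gy library 4 the median was 0.32 with 16 above 0, and with voom and sample weights 0.17 with 16. Summed over the list and before TMM scaling, these markers had 688 to 838 CPM in 1x10 Gy, against 512 to 1325 CPM in 5x2 Gy and 338 to 2432 CPM in unirradiated libraries, and 4564 to 7492 CPM in the monocyte-derived macrophages of both regimens. No marker of the list was at 0 in all 7 libraries. Ribosomal protein genes had 1 of 35 estimates above 0 and a median of −0.67, and Rps14 had 98.0, 88.7 and 100.5 CPM in 1x10 Gy, against 106, 119 and 124 CPM in 5x2 Gy libraries 1 to 3 and 382 CPM in library 4. Without library 4 the ribosomal median was −0.20 with 6 of 35 above 0. The part of these cells in the class II values was not tested.

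In the main fit, inflammatory genes had a list median close to that of all genes and below that of genes of 10 CPM or more. Of 25 inflammatory cytokine and NF-kB genes, 8 had an estimate above 0, with a median of −0.18. With the term for CT010467.1 the median was 0.09 with 14 above 0, and within libraries low in CT010467.1 it was 0.24 with 16. With voom and sample weights it was −0.03 with 11. At an unadjusted p under 0.05, 1 gene was lower, beside 4.32% of all genes and 1.45% of those of 10 CPM or more. That gene was Rel, a subunit of NF-kB, with 111, 122 and 153 CPM in 1x10 Gy, against 387, 172, 148 and 209 CPM in 5x2 Gy (−0.83, −1.57 to −0.09). Tnf, tumour necrosis factor, was separate, with 691, 769 and 808 CPM in 1x10 Gy, against 844, 1113, 947 and 1127 CPM in 5x2 Gy, all within the unirradiated range of 345 to 1474 CPM (−0.42, −1.29 to 0.46). Nlrp3, the sensor of an inflammasome, had 143, 139.7 and 272 CPM in 1x10 Gy, against 517, 652, 219 and 121 CPM in 5x2 Gy (−1.03, −2.09 to 0.03). Il1b, interleukin 1 beta, and Ccl2, a chemokine that attracts monocytes, overlapped with estimates of −0.35 (−1.28 to 0.57) and −0.12 (−1.02 to 0.79). Of 22 chemokines, 7 had an estimate above 0, with a median of −0.18.

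Of 25 antioxidant genes, 5 had an estimate above 0, with a median of −0.24. Gclm, a subunit of the enzyme that limits glutathione synthesis, had 49.5, 71.2 and 32.6 CPM in 1x10 Gy, against 50.3, 90.2, 66.2 and 190.4 CPM in 5x2 Gy (−0.96, −1.90 to −0.02, edgeR adjusted p = 0.751). Sod1, a superoxide dismutase, had 21.9, 23.1 and 33.1 CPM in 1x10 Gy, against 21.3, 44.4, 51.1 and 93.1 CPM in 5x2 Gy, and Prdx1, a peroxiredoxin, had 396, 506 and 361 CPM against 399.7, 638, 471 and 961 CPM. Library 4 of 5x2 Gy was the highest of the 7 for all 3 genes, and without it 9 of the 25 antioxidant genes were above 0 with a median of −0.05. Lists whose medians lay close to that of all genes or to 0 included complement (12 of 17 above 0, median 0.10), MHC class I (13 of 18, 0.13), lysosome and phagocytosis (21 of 27, 0.13), double-strand break repair (18 of 30, 0.06) and cell death and survival (16 of 27, 0.06). Unfolded protein and heat shock (11 of 20, 0.02), hypoxia and glycolysis (11 of 22, −0.02), immune checkpoints and costimulation (6 of 14, −0.05), senescence and growth arrest (8 of 19, −0.03), lipid handling (10 of 23, −0.05) and the respiratory chain (8 of 28, −0.10) did too. DESeq2 on the 7 libraries called 2 genes of the cell death and survival list, both lower in 1x10 Gy. Immediate early genes had 17 of 24 estimates above 0 (median 0.14), growth factors and matrix 10 of 25 (−0.19), and alternative activation 7 of 16 (−0.23), the list that holds Arg1. Without 5x2 Gy library 4 alternative activation had 11 of 16 above 0 and a median of 0.31. Of that list, DESeq2 on the 7 libraries and voom with sample weights each called Il10, lower in 1x10 Gy (adjusted p = 0.00786 and 0.0126).

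Markers of other cell types gave no call in edgeR. DESeq2 on the 7 libraries called 6 of them, all higher in 1x10 Gy: Atp1b2 and Gja1 of astrocytes (adjusted p = 0.0122 and 0.013), S100a9 and Cxcr2 of granulocytes, Siglec1 of border macrophages and Kdr of endothelium, and voom with sample weights called Kdr. Summed over 12 astrocyte markers, the level before TMM scaling was 253 to 583 CPM in 1x10 Gy, against 213 to 339 CPM in 5x2 Gy and 151 to 572 CPM in unirradiated libraries. Of these 12, 11 had an estimate above 0, with a median of 1.06. At an unadjusted p under 0.05, 2 were higher, beside 0.891% of all genes and 1.25% of those of 10 CPM or more. Atp1b2, a subunit of the astrocytic sodium pump, had 4.02, 12 and 2.36 CPM in 1x10 Gy, against 0.422, 0.376, 1.82 and 0.283 CPM in 5x2 Gy and 0.179 to 13.7 CPM in unirradiated libraries. Library 2 of 1x10 Gy was again the highest, as for Gja1 and Gpr37l1. Without it the astrocyte list had 8 of 12 above 0, a median of 0.20 and 0 genes at an unadjusted p under 0.05, and without 5x2 Gy library 3 the median was 1.95. The part of astrocyte RNA in other genes of that library was not tested. Neurons (7 of 13 above 0, median 0.08), the oligodendrocyte lineage (7 of 12, 0.12), lymphocytes (7 of 12, 0.07) and granulocytes (8 of 11, 0.25) had medians above 0. Those of the first 3 turned negative without 1x10 Gy library 2 (−0.14, −0.63 and −0.37). Endothelium and pericytes (4 of 13, −0.63), border macrophages (3 of 11, −0.48), dendritic cells (2 of 11, −0.63), erythroid cells (1 of 6, −0.66) and epithelium (2 of 5, −1.95) had medians below 0. Without 5x2 Gy library 4 those of border macrophages (8 of 11, 0.19), dendritic cells (8 of 11, 0.43) and erythroid cells (4 of 6, 0.87) lay above 0.

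**Figure D5:**
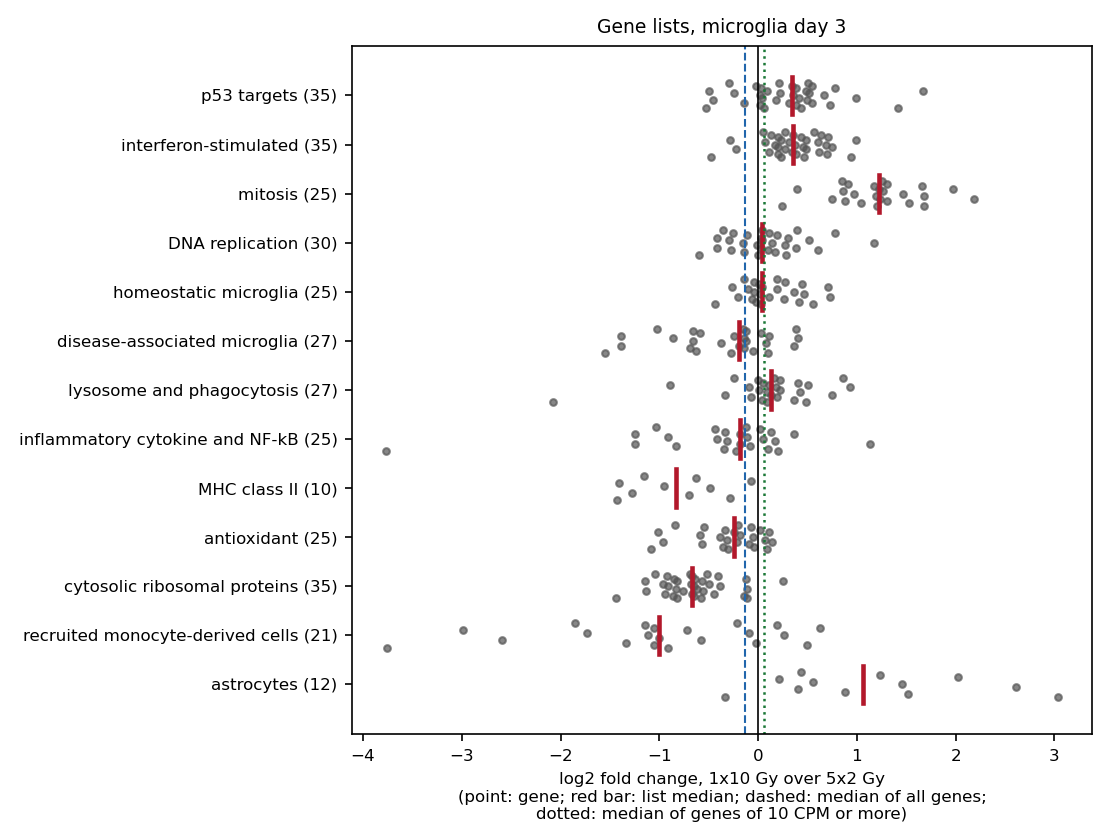
Log2 fold change of 1x10 Gy over 5x2 Gy for each member of 13 gene lists (1 point per gene), with a red bar at each list's median and a dashed line at the median of all genes, −0.13, and a dotted line at that of genes of 10 CPM or more, 0.06. The median is 0.34 for p53 targets, 0.35 for interferon-stimulated genes, 1.22 for mitosis, −0.67 for ribosomal proteins and −0.83 for MHC class II.

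The same regimens were given to monocyte-derived macrophages of the same series (labelled BMDM, 3 libraries of 1x10 Gy and 4 of 5x2 Gy on day 3), where edgeR called 0 of 15874 genes. At an unadjusted p under 0.05, 347 genes were higher there (2.19%) and 262 lower (1.65%), and DESeq2 called 2, Rorb and Onecut2. The test of the difference between the populations called 0 of 18904 genes in edgeR, with 148 genes (0.783%) higher and 415 (2.2%) lower at an unadjusted p under 0.05 and 7 calls in DESeq2. No gene is therefore called particular to microglia by edgeR.

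Phlda3 leaned the same way in the macrophages. It had 39.1, 18.8 and 5.66 CPM in 1x10 Gy, against 5.40, 8.59, 6.89 and 4.06 CPM in 5x2 Gy, where the groups overlapped (1.76 ± 0.74, edgeR adjusted p = 1). The difference between the populations was −0.31 with a wide interval, −2.20 to 1.59. Ephx1 and Mmp2 had larger estimates in macrophages, 2.36 ± 0.63 and 2.27 ± 0.76, and differences between the populations of −1.66 (−3.00 to −0.32, edgeR adjusted p = 1) and −1.45 (−2.87 to −0.04, edgeR adjusted p = 1). Mdm2, Ccng1 and Cdkn1a had estimates of 0.25, 0.24 and 0.32 in macrophages, with intervals of the difference that include 0.

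Among the genes with the smallest p in microglia, 12 of the 15 higher and 12 of the 15 lower had an estimate of the same sign in macrophages, and 2 and 1 of them an unadjusted p under 0.05 there. Over all genes in macrophages, 44.7% of estimates lay above 0, and 2.19% were higher and 1.65% lower at that threshold. The share of all genes with the same sign in both populations was not computed, so these counts are not read as likeness. Luc7l2 had the clearest difference between populations, with −0.03 ± 0.35 in macrophages and a difference of −1.58 (−2.37 to −0.79, edgeR adjusted p = 1). Irf7 was −0.09 ± 0.27 in macrophages, a difference of 1.07 (0.12 to 2.02, edgeR adjusted p = 1), and Lpl was 1.94 ± 0.74 there, a difference of −2.93 (−4.92 to −0.94, edgeR adjusted p = 1). Of the 25 homeostatic microglial genes, 24 had an estimate above 0 in macrophages, against 44.7% of all genes there, and 9 were higher at an unadjusted p under 0.05. Sall1, a microglial factor, had 24.1, 18.4 and 38.2 CPM in 1x10 Gy macrophages, against 1.61, 4.86, 12.5 and 0.744 CPM in 5x2 Gy macrophages, and the part of microglial RNA in those libraries was not tested. The TEC share averaged 0.141 ± 0.0381% in 1x10 Gy and 0.151 ± 0.0384% in 5x2 Gy macrophages (SD, n = 3 and 4, exact permutation p = 0.743). In macrophages the median log2 fold change was −0.54 for TEC, −0.84 for sense-intronic, −0.32 for lincRNA and −0.25 for antisense models. That of protein-coding genes was −0.03.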

How the data were processed

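Myeloid cells were purified by flow cytometry, and libraries were made from their total RNA, per the labels' protocols. The deposited table holds raw counts, 49585 genes in 108 libraries, and was used as deposited. Per the submitters' processing notes, the build was GRCm38 and the tools were TopHat2 2.0.14, HTSeq, FastQC and DESeq2 1.18.1, with no role stated. The strand of counting and the annotation used are not given in those sources. GENCODE M21 supplied coordinates and gene classes for 49326 IDs, and 233 genes had no symbol.

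The 34 microglia libraries were fitted together in edgeR 4.0.16 (R 4.3.3): filterByExpr at a minimum count of 10 and minimum total of 15, TMM scaling, 1 mean per group, quasi-likelihood F-test, Benjamini-Hochberg adjustment over all genes tested and a threshold of 0.05. The 24 libraries of monocyte-derived macrophages were fitted in the same way. Contrasts are 1x10 Gy over 5x2 Gy, and each over the mean of the small and large unirradiated stages. Intervals are 95% and unadjusted. Means ± SD are of CPM, and list levels are means of log2(CPM + 1).

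The comparison, the 37 gene lists and the tests were chosen with earlier results of these data known. The genes named are the 15 with the smallest p each way at 10 CPM or more without gene models, the 4 or fewer of smallest p in every list, and 21 fixed response and cell type genes. Genes called against unirradiated cells, Ldhb, Gm5514, Dct, Rorb, Onecut2, Malat1 and Neat1 were added after their values were seen. Not every gene the rule allows is printed.

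Alternatives were RLE scaling, no filter, DESeq2 1.42.0, a replicate block, the 7 libraries or tumour-bearing brains alone, voom with sample weights in limma 3.58.1, either stage alone as the unirradiated group, and leaving out each library. Added after seeing the data were DESeq2 and voom on the 7 libraries, genes of 10 CPM or more, terms for CT010467.1, ribosomal protein share and non-coding share, and leaving out libraries under 3000000 counts, over 30000 genes detected or over 100 CPM of CT010467.1. The fits were tested on simulated data. Python 3.11.15, pandas 2.3.3, numpy 2.4.6, scipy 1.17.1 and matplotlib 3.10.9 were used.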

Additional observations from a re-analysis of the deposited data

Results flagged for a closer look

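In the 4 libraries of 5x2 Gy, the highest or lowest library was tested for its distance from the others with Dixon's criterion for the 86 genes printed with values. Chance marks about 1 in 20 such groups. Library 4 stood above the others for H2-Aa (97.4 CPM), H2-Eb1 (572 CPM), Ccr2 (235 CPM), Rps14 (382 CPM) and Mki67 (25.3 CPM), genes of antigen presentation, monocytes, the ribosome and the cell cycle. Library 1 stood above the others for Kdr (23.7 CPM) and below them for Ccl2 (373 CPM). Library 2 stood above the others for Fzd8 (9.50 CPM), and library 3 for Atp1b2 (1.82 CPM), a marker of astrocytes. Groups of 3 were not tested, so the 1x10 Gy libraries have no such check.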

How the results depend on the processing

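The count of genes past the threshold between the regimens was 0 in edgeR and stayed 0 with RLE scaling, no filter, the replicate block, the 7 libraries alone, tumour-bearing brains alone, voom on the 7 libraries, genes of 10 CPM or more, the 3 added terms and both selections of libraries. It was 32 with DESeq2, 24 with voom and sample weights, 194 with DESeq2 on the 7 libraries, and 0 to 2 when 1 library was left out. The cause was not tested. Over unirradiated microglia, the count for 1x10 Gy was 168 with DESeq2, 12 with the small and 13 with the large stage alone, and 10 to 17 when 1 library was left out. That for 5x2 Gy was 27 with DESeq2, 6 with either stage, and 7 to 11 when 1 library was left out. In monocyte-derived macrophages the count was 1 without a filter (Ddx3y, Y-linked) and 2 with DESeq2, and for the difference between populations 7 with DESeq2.

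Of 1882 values for the 86 genes under the alternatives, 1821 kept sign and side of the threshold, 30 passed it and 31 changed sign. Cdkn1a became −0.01 with RLE, DESeq2, the 7 libraries alone or without 5x2 Gy library 4, −0.04 without 1x10 Gy library 1 and −0.05 without 5x2 Gy library 3. Bax became −0.03 without 1x10 Gy library 1, Exoc4 −0.02 without 5x2 Gy library 2, P2ry12 0.05 with the CT010467.1 term and Tmem119 −0.03 with the non-coding term. Apoe became 0.00 with voom, 0.01 with the CT010467.1 term, 0.11 with the non-coding term, 0.26 in libraries low in CT010467.1 and 0.05 without 5x2 Gy library 2. H2-Aa became 0.46 with voom, 0.56 with voom on the 7 libraries, 0.02 with the ribosomal term and 1.17 without 5x2 Gy library 4. H2-Eb1 became 0.00 with the replicate block, 1.15 with voom, 1.32 with voom on the 7 libraries, 0.66 with the ribosomal term and 2.02 without 5x2 Gy library 4, and Ccr2 0.02, 0.21 and 0.84 with voom, voom on the 7 libraries and without 5x2 Gy library 4. Over all libraries left out in turn, the ranges were −0.05 to 0.11 for Cdkn1a, −0.03 to 0.18 for Bax, −0.02 to 0.27 for Exoc4, −0.24 to 0.05 for Apoe, −1.78 to 1.17 for H2-Aa, −1.66 to 2.02 for H2-Eb1 and −2.12 to 0.84 for Ccr2. In libraries low in CT010467.1, Ly6c2 became −0.06, Nlrp3 0.12 and Il1b 0.36, and Il1b was 0.02 with the CT010467.1 term.

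Same-numbered libraries of 1x10 Gy and 5x2 Gy did not deviate together (correlations −0.14, −0.17 and −0.07). No pairing of the regimens by number was seen, though so few correlations cannot exclude a shared batch. With the replicate block 0 genes were called, as in the main fit. Microglia and macrophages of the same number correlated at 0.02 to 0.50 and best with their own number in all 7 cases, a hint from the data and not the design. In 5x2 Gy, number 2 had 0 CPM of Xist in microglia and 0.0856 CPM in macrophages, with 294 and 461 CPM over Y-linked genes. These CPM are before TMM scaling. A block for the number shared by microglia and macrophages gave 0 calls for the difference between populations. The differences between populations printed above come from the fit without that block, which treats the libraries as independent. Groups of 3 and 4 and a median interval half-width of 0.70 limit what could be called.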
